A study of Mus musculus with 17 samples.

Results

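The genes described here are 30 genes of cholesterol synthesis, transport, storage, uptake and efflux in epididymal white fat of mice on high-fat diets that differed in glycemic index. The genes were listed by name, and each was measured by its brightest probe, chosen among those clearly above background in Cy5 on 8 or more of 17 arrays. All 30 of the 30 listed genes met that condition, out of 18134 genes tested in all. They comprise 18 enzymes of synthesis (Acat2, Hmgcs1, Mvk, Pmvk, Mvd, Idi1, Fdps, Fdft1, Sqle, Lss, Cyp51, Tm7sf2, Msmo1, Nsdhl, Hsd17b7, Ebp, Sc5d and Dhcr7) and 3 genes of its control (Srebf2, Insig1 and Insig2). A further 4 genes act in transport and storage inside the cell (Stard4, Npc1, Npc2 and Soat1), and 5 in efflux and uptake (Abca1, Abcg1, Scarb1, Nr1h2 and Apoe).

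The mice were adult male C57BL/6J animals, all fed a purified diet with 30% of energy from fat for 13 weeks. In 8 mice the carbohydrate had a low glycemic index (LGI, replicates 1, 2, 4, 5, 6, 7, 8 and 9) and in 9 it had a high one (HGI, replicates 1, 2, 3, 4, 5, 6, 7, 9 and 10). The glycemic index states how strongly a carbohydrate raises blood glucose. The Agilent arrays were 2-colour arrays, 1 for each mouse, with the mouse's RNA in the dye Cy5 and the pooled RNA of all mice in Cy3. Levels below are log2 ratios of a mouse to that pool, and differences are given as HGI minus LGI. The 12 epididymis and sperm genes measured averaged below the pool on every array, from -2.64 in HGI 4 to -2.03 in HGI 9. A level below the pool is therefore not always a level below the mean of these mice, and the reason was not tested.

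Cells build cholesterol from acetyl-CoA through mevalonate, farnesyl diphosphate, squalene and lanosterol. When sterols in the endoplasmic reticulum are low, the transcription factor SREBP2, made from Srebf2, is released from its membrane anchor, where the INSIG proteins hold it back, and it turns on most genes of the pathway together. When sterols are high, the liver X receptors, one of them made from Nr1h2, turn on the export pumps ABCA1 and ABCG1. Fat cells synthesize rather little sterol of their own, yet they store a large part of the body's free cholesterol beside their triglyceride droplet, so uptake, storage and export matter in this tissue.

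Promoter sequences are shown first. Many synthesis genes varied together between mice, as described further on, and any link of that to the promoters was not tested. The promoters are the 250 bases before the annotated start site in RefSeq, assembly GRCm38.p6, and 23 of the 30 members had such an entry. Shown are the anchor of the correlations (Hmgcs1), the genes Msmo1, Cyp51 and Insig1, whose values correlated with it, Tm7sf2, which had the smallest p for diet, and the export pump Abca1. Capitals mark TCACNCCA, a short form of the sterol regulatory element that SREBP2 binds, and CCAAT, the box bound by the cofactor NF-Y, each searched on both strands.
Hmgcs1 (chr13:119690101-119690350, plus strand): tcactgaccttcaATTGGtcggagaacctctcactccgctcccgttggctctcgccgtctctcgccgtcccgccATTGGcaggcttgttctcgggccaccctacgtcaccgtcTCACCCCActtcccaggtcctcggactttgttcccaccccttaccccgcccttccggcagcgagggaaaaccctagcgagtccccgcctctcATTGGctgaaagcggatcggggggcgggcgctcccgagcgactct
Msmo1 (chr8:64733579-64733828, minus strand): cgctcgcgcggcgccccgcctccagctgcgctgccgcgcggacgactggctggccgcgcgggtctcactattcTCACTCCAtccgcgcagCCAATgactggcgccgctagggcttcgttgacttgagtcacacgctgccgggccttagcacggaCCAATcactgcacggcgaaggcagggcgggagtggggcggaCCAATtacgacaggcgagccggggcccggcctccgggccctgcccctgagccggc
Cyp51 (chr5:4104698-4104947, minus strand): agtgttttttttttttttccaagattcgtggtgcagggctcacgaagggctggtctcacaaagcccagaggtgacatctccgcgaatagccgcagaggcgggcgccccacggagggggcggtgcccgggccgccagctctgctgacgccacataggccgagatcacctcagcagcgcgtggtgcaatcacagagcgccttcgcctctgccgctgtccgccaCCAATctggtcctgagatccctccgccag
Insig1 (chr5:28071162-28071411, plus strand): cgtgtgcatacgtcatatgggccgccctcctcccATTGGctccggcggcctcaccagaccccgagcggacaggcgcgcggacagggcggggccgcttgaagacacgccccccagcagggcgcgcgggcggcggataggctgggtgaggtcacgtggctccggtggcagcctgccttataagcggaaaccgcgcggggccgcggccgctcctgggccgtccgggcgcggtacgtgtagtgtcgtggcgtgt
Tm7sf2 (chr19:6067851-6068100, minus strand): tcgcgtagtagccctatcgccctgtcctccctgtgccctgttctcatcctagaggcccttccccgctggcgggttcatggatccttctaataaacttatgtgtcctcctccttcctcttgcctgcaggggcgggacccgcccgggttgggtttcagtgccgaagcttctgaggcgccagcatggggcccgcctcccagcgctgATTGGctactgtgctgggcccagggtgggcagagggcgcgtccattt
Abca1 (chr4:53159896-53160145, minus strand): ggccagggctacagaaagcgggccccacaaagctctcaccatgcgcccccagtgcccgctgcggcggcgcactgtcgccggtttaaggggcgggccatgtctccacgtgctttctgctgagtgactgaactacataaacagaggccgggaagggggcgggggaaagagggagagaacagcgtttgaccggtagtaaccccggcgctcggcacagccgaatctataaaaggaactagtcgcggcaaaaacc
The CCAAT box was found in 14 of the 15 synthesis genes with an entry, in 3 of 3 control genes, in 2 of 2 genes of transport and storage and in 0 of 3 genes of efflux and uptake, 19 of 23 members in all, while 37.5% of 27025 mouse genes hold it in a window of the same length. The form TCACNCCA was found in 4 of 23 members (Hmgcs1, Msmo1, Srebf2 and Apoe), against 4.2% of all genes. In Hmgcs1 its first base lies 137 bases before the start site and in Msmo1 177 bases before it. The first base of the single CCAAT match lies 29 bases before the start in Cyp51, 47 in Tm7sf2 and 216 in Insig1. A gene with several start sites was counted as holding a motif if any of its windows did. A match is only a run of letters, and a window without one says nothing about whether a factor binds there.

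The Cy5 signal was well above background for 54.2% to 66.7% of an array's gene spots, for 28 of the 30 members on all 17 arrays, and for the other two, Mvd and Cyp51, on 16. Of the tissue's defining markers, all 9 adipocyte genes looked for (such as Adipoq, Plin1 and Fabp4) were measured. The libraries HGI 9 and HGI 10 stood apart: the correlation over all genes was 0.81 between them and lay between -0.05 and 0.14 with any other array, and in both the 8 seminal vesicle secretion genes averaged 1.70 and 1.66, against -4.23 to -3.92 in the other 15. The plot of the diet difference of each of the 30 genes therefore shows estimates with and without these libraries. The text gives the estimate without them for only some members. The correlations mainly leave them out. The diet differences by scan group, the synthesis means, synthesis minus efflux and the spread between mice are given only with them. All arrays were scanned on 1 day. By scan time, the first 8 (4 LGI, 4 HGI) had higher negative-control Cy5 signals, 124 to 145, than the later 9 (4 LGI, 5 HGI), 98.3 to 112.

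No member passed an adjusted p of 0.05 for diet (limma, Benjamini-Hochberg over 18134 genes), and 0 of all genes tested did, which is 0% of them. The smallest adjusted p of a member was 0.522. At an unadjusted p under 0.05, a mark that 7.74% of all genes reached (3.96% with higher and 3.77% with lower levels in HGI), there were 4 members of 30: Tm7sf2, Fdps and Soat1 with higher levels in HGI and Acat2 with a lower level. Exact permutation tests of each gene over all 24310 splits of the arrays, two-sided and not adjusted, put the same 4 members under 0.05, as they did 7.89% of 17976 genes with a value on every array, and their p is given below as the exact p. Differences lay evenly on both sides of zero, 15 members higher and 15 lower, where 52.6% of all genes were higher. The median difference was 0.0044 over the synthesis genes, -0.03 over the control genes, 0.06 over transport and storage and -0.0027 over efflux and uptake, beside 0.0058 over all genes. In bulk tissue such as this, fewer cells of a type and less RNA per cell cannot be told apart.

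**Figure D1:**
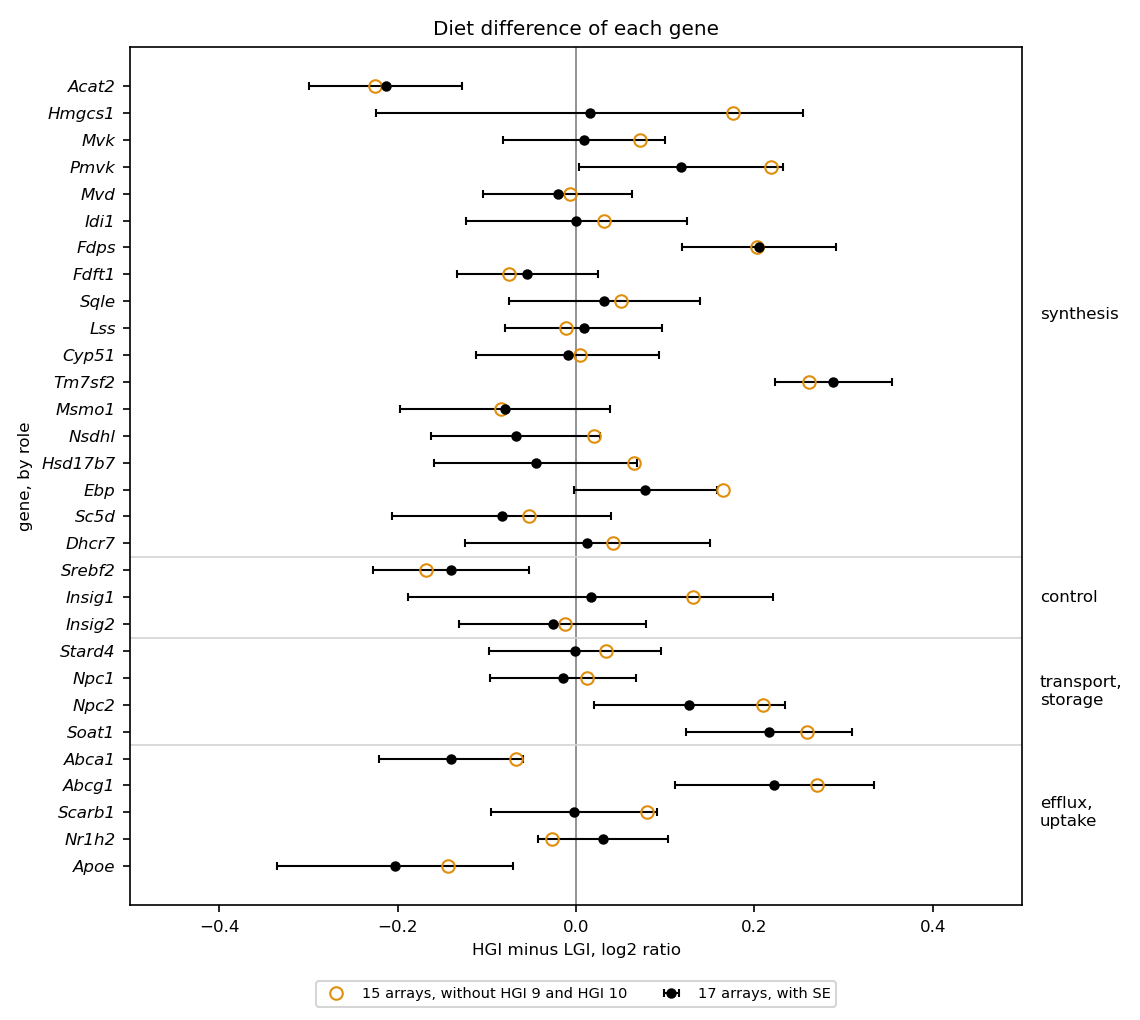
Difference between the diets for each of 30 genes (horizontal axis, HGI minus LGI, log2 ratio), with genes in rows by role. Filled points with bars are the limma estimate and its SE over 17 arrays, and open circles are the estimate without HGI 9 and HGI 10. The differences lie on both sides of zero, and Tm7sf2 has the highest, at 0.29.

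Tm7sf2, a sterol reductase that acts after lanosterol, had the smallest p of the members. Its LGI values ran from -0.73 through a median of -0.54 to -0.27, and its HGI values from -0.45 through -0.26 to -0.12. All 9 HGI mice lay above the LGI median, and 7 of the 8 LGI mice lay below every HGI mouse, with LGI 8 the one inside the HGI range. The difference was 0.29 ± 0.07 (SE), a 1.22-fold higher level with a 95% interval of 1.11 to 1.34 that is not adjusted for the number of genes, at an exact p of 0.000535 and an adjusted p of 0.522 in limma. Without HGI 9 and HGI 10 it was 0.26 ± 0.07 (exact p = 0.00202). It stayed above zero in every alternative tried but ranged from 0.11 in the authors' deposited table, where it was not past the unadjusted mark (nor in the later 9 arrays alone, at 0.18), to 0.42 with the scanner software's processed signals. A share of 0.0386% of all genes had diet groups that did not overlap, and no member was among them.

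Fdps and Acat2, both enzymes before squalene, differed in opposite directions. Fdps, which makes farnesyl diphosphate, ran from -0.35 to 0.04 in LGI with a median of -0.31, and from -0.32 to 0.30 in HGI with a median of -0.04. The groups overlapped over most of this span, with 8 of 9 HGI mice above the LGI median. The difference was 0.21 ± 0.09 (exact p = 0.0371, adjusted p = 0.597 in limma) and 0.20 ± 0.09 (exact p = 0.0531) without HGI 9 and HGI 10. It missed the unadjusted mark in 6 of 18 alternatives, lowest at 0.08 in the authors' deposited table, and with any 1 of 5 mice left out (LGI 6, LGI 9, HGI 2, HGI 3 or HGI 9), lowest at 0.16 without HGI 2, its highest mouse. Acat2, the cytosolic thiolase that makes acetoacetyl-CoA at the start of the pathway, differed the other way. Its LGI values lay between -0.28 and 0.28 with a median of 0.10, and its HGI values between -0.50 and 0.13 with a median of -0.16. In HGI 8 of 9 mice were below the LGI median, and the difference was -0.21 ± 0.09 (exact p = 0.0295, adjusted p = 0.576 in limma). It missed the unadjusted mark in 4 of 18 alternatives, with median centring (-0.20), with array weights (-0.16), in the first 8 arrays (-0.12) and without HGI 9, HGI 10 and LGI 9 (-0.19), and also without LGI 9 alone (-0.18).

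Hmgcs1, which makes HMG-CoA, the last step before mevalonate is formed, had the widest spread of all members and almost no difference between diets. It ran from -1.16 in LGI 2 to 0.72 in LGI 7, with an LGI median of -0.16, and from -0.82 in HGI 9 to 0.50 in HGI 1. The LGI mean was -0.06 ± 0.57 (SD, n = 8), and the HGI mean was -0.05 ± 0.56 (SD, n = 9). The difference of 0.02 ± 0.24 (SE) leaves a 95% interval from -0.48 to 0.51, the widest of any member. Without HGI 9 and HGI 10 it was 0.18 ± 0.23.

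The mevalonate kinases and the isomerase that follow showed little. Mvk, mevalonate kinase, differed by 0.01 ± 0.09 and Mvd, which makes isopentenyl diphosphate, by -0.02 ± 0.08. Pmvk, phosphomevalonate kinase, differed by 0.12 ± 0.11, and by 0.22 ± 0.10 (exact p = 0.083) without HGI 9 and HGI 10, which held its lowest HGI values, -0.24 and -0.46. Idi1, which interconverts the 2 isoprene units, differed by 0.0003 ± 0.12.

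Squalene synthesis and cyclization were also close to equal between diets. Sqle, squalene epoxidase and a slow step of the pathway, ran from -0.55 to 0.28 in LGI and from -0.37 to 0.31 in HGI, with medians of -0.08 and -0.04. These ranges nearly coincide, and the difference was 0.03 ± 0.11. Fdft1, squalene synthase, differed by -0.05 ± 0.08 and Lss, lanosterol synthase, by 0.01 ± 0.09. In both genes HGI 6 lay far below the other HGI mice.

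Of the enzymes that turn lanosterol into cholesterol, Tm7sf2 was the exception already described. Cyp51, the lanosterol demethylase, differed by -0.01 ± 0.10, Msmo1, the methylsterol oxidase, by -0.08 ± 0.12, and Nsdhl, which works beside it on the same methyl groups, by -0.07 ± 0.09. Hsd17b7, the sterone reductase of that complex, differed by -0.05 ± 0.11, Sc5d, the lathosterol desaturase, by -0.08 ± 0.12, and Dhcr7, the last reductase of one branch, by 0.01 ± 0.14. Ebp, the sterol isomerase, differed by 0.08 ± 0.08, with 7 of 9 HGI mice above the LGI median. Without HGI 9 and HGI 10, the lowest HGI mice for Ebp at -0.08 and -0.13, its difference was 0.16 ± 0.07 (exact p = 0.0166). HGI 9 and HGI 10 were also low for Nsdhl, at -0.57 and -0.39, and for Hsd17b7, at -0.34 and -0.42. Without them Nsdhl differed by 0.02 ± 0.08 and Hsd17b7 by 0.06 ± 0.10.

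**Figure D2:**
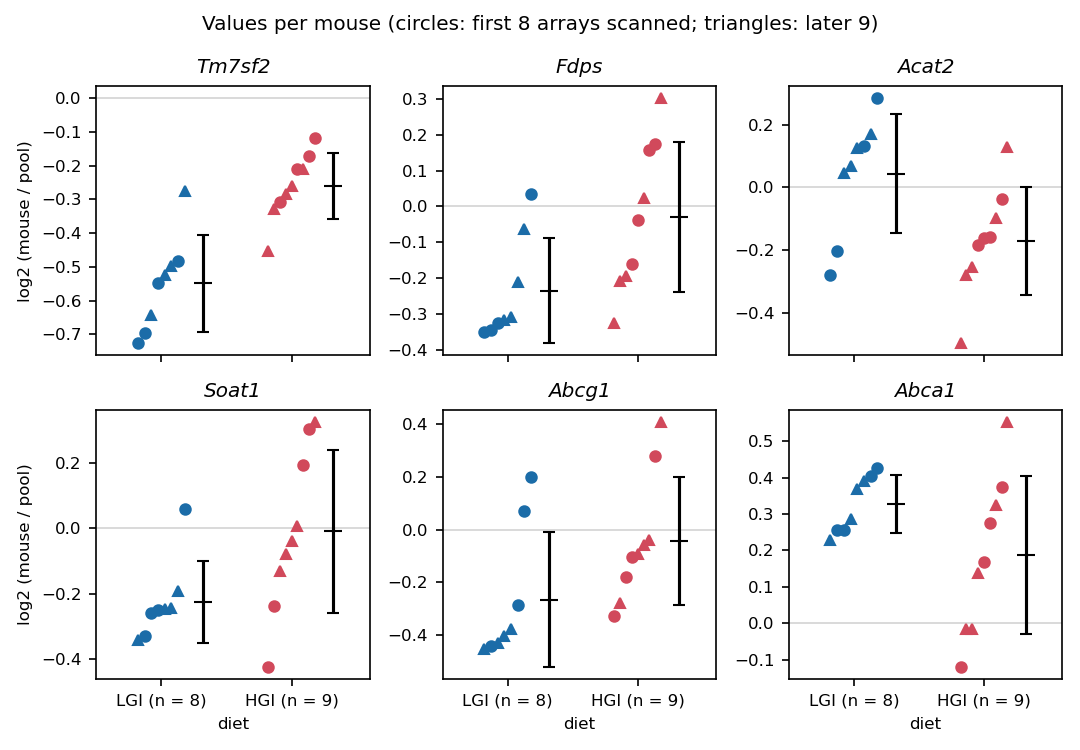
Values of 6 genes in each mouse (vertical axes, log2 ratio of mouse to pool, on a separate scale for each gene) by diet, with circles for the first 8 arrays scanned and triangles for the later 9. Black marks are the mean and SD of 8 LGI and 9 HGI mice. In each gene the groups overlap, least in Tm7sf2, where 7 of 8 LGI mice lie below all HGI mice.

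The control genes gave no call. Srebf2, which encodes SREBP2, differed by -0.14 ± 0.09. Its LGI values ran from -0.41 to 0.38 with a median of -0.08 and its HGI values from -0.43 to -0.07 with a median of -0.18. In HGI 8 of 9 mice lay below the LGI median, yet LGI 2 and LGI 5 were nearly as low as the lowest HGI mouse, and the exact p was 0.139 (adjusted p = 0.727 in limma). Insig1, a sterol sensor that is itself a target of SREBP2, ran from -0.51 to 0.40 in LGI and from -0.86 in HGI 6 to 1.06 in HGI 4. That is the widest HGI range of any member, with a difference of 0.02 ± 0.20. Insig2, the second INSIG gene, differed by -0.03 ± 0.11, and only LGI 4, at -0.15, lay below the pool.

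Among the genes of transport and storage, Soat1 stood out by its unadjusted p. It encodes the enzyme that esterifies cholesterol for storage and is the main such enzyme of macrophages. Its LGI values ran from -0.34 to 0.06 with a median of -0.25, and its HGI values from -0.42 to 0.32 with a median of -0.04. HGI mice held both the lowest and the 3 highest values. The difference was 0.22 ± 0.09 (exact p = 0.0441, adjusted p = 0.610 in limma) and 0.26 ± 0.10 (exact p = 0.0312) without HGI 9 and HGI 10. It missed the unadjusted mark in 5 of 18 alternatives, lowest at 0.12 in the authors' deposited table, and with any 1 of 5 mice left out (LGI 2, LGI 5, HGI 3, HGI 4 or HGI 5), lowest at 0.17 without HGI 4.

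Macrophage markers were also higher in HGI. All 11 of the 11 macrophage genes listed (such as Adgre1, Cd68 and Itgax) were higher in HGI, with a median difference of 0.13 and unadjusted p under 0.05 in 3. Their mean per mouse ran from -0.27 to 0.03 in LGI and from -0.16 to 0.46 in HGI. It was highest in HGI 4, which also had the highest Soat1 value. In LGI the highest macrophage mean was that of LGI 7, where Soat1 was at -0.25. The highest LGI value of Soat1 was that of LGI 9, where the macrophage mean was -0.19. Of the 9 adipocyte genes 7 were lower in HGI, with a median difference of -0.16. Of 7 mesothelial genes (such as Msln, Wt1 and Upk3b), which mark the sheet that covers this fat pad, 6 were lower in HGI, with a median difference of -0.21 and unadjusted p under 0.05 in 4. Their mean per mouse ran from -0.11 to 0.45 in LGI and from -0.38 to 0.35 in HGI. Of 6 endothelial genes 5 were lower, with a median of -0.06. Their mean was -0.35 in HGI 9 and -0.25 in HGI 10, and lay between 0.06 and 0.24 in the other HGI mice. Without HGI 9 and HGI 10 the median difference was 0.03 for the endothelial genes. It was then 0.20 for the macrophage, -0.14 for the adipocyte and -0.18 for the mesothelial genes. In the first 8 arrays scanned 7 of the 11 macrophage genes were higher in HGI. Their median difference was 0.04 there and 0.21 in the later 9 arrays. The same medians were -0.05 and -0.17 for the adipocyte, -0.26 and -0.18 for the mesothelial and -0.10 and -0.06 for the endothelial genes. The part of these cell types in the Soat1 result was not tested.

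The lysosomal exporters and the sterol carrier did not differ beyond their spread. Npc2, which takes cholesterol from lysosomal lipids to NPC1, differed by 0.13 ± 0.11, and by 0.21 ± 0.10 (exact p = 0.0852) without HGI 9 and HGI 10. Npc1, the membrane protein it hands cholesterol to, ran from -0.18 to 0.40 in LGI and from -0.16 to 0.34 in HGI, with medians of 0.08 and 0.11 and a difference of -0.01 ± 0.08. Stard4, a soluble sterol carrier and a target of SREBP2, differed by -0.0016 ± 0.10.

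The export pumps differed in opposite directions, neither past the threshold. Abcg1, which passes cholesterol to high-density lipoprotein, ran from -0.45 to 0.20 in LGI with a median of -0.39 and from -0.33 to 0.41 in HGI with a median of -0.09. All 9 HGI mice lay above the LGI median, but LGI 6, at 0.07, and LGI 7, at 0.20, lay among the high HGI values. The difference was 0.22 ± 0.11 (exact p = 0.0862, adjusted p = 0.660 in limma), and 0.27 ± 0.12 (exact p = 0.0622) without HGI 9 and HGI 10. Abcg1 is, like Soat1, well expressed by macrophages, whose markers were higher in HGI as given above, and their part here was not tested either.

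Abca1, which loads cholesterol onto apolipoprotein A-I, had a narrow LGI range, 0.23 to 0.43 with a median of 0.33. Its HGI values ran from -0.12 to 0.55 with a median of 0.17, and 5 HGI mice lay below every LGI mouse. HGI 9, HGI 6 and HGI 10 were the lowest, at -0.12, -0.02 and -0.02. The difference of -0.14 ± 0.08 (exact p = 0.104) was -0.07 ± 0.07 without HGI 9 and HGI 10, less than 1 SE from zero.

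The receptor and regulator genes of this role were close to zero. Scarb1, the receptor for high-density lipoprotein, ran from -0.23 to 0.29 in LGI and from -0.31 to 0.35 in HGI, with medians of 0.06 and 0.07 and a difference of -0.0027 ± 0.09. Nr1h2, the liver X receptor beta, differed by 0.03 ± 0.07 with a 95% interval of -0.12 to 0.18, whose outer bound lies closest to zero of all members. Apoe, the apolipoprotein that macrophages and fat cells secrete with cholesterol, ran from -0.55 to 0.34 in LGI and from -0.62 to 0.39 in HGI, with medians of 0.10 and -0.15. Its difference was -0.20 ± 0.13 (exact p = 0.184), with 7 of 9 HGI mice below the LGI median.

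For 16 of the 30 members the unadjusted 95% interval of the difference lay within 0.3 of zero on the log2 scale, and for 14 it reached beyond. Without HGI 9 and HGI 10, 7 members had an unadjusted limma p under 0.05 instead of 4. These were Pmvk, Ebp and Abcg1 beside Tm7sf2, Fdps, Soat1 and Acat2. For Pmvk a second probe of nearly equal brightness differed by only 0.0029 ± 0.11 over all arrays. Without HGI 9 and HGI 10, 4 members had an exact p under 0.05 (Tm7sf2, Ebp, Soat1 and Acat2). Over all genes of that comparison 7.79% had an unadjusted limma p under 0.05 and 7.78% an exact p under 0.05 (the latter over the 17976 genes).

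Further genes of the pathway were counted beside the members. Of 39 further genes listed for synthesis, control, uptake, transport and efflux, 33 were measured, and 18 were higher and 15 lower in HGI, none past an adjusted p of 0.05. The unadjusted mark, which 7.74% of all genes reached, was reached by 2 of the 33. These were Srebf1, whose product SREBP1 drives mainly fatty acid synthesis, and Acat1, the mitochondrial thiolase. Srebf1 was at 0.16 ± 0.37 (SD, n = 8) in LGI and -0.20 ± 0.25 (SD, n = 9) in HGI, a difference of -0.36 ± 0.14 (exact p = 0.0324, adjusted p = 0.568 in limma), and Acat1 differed by -0.12 ± 0.06 (exact p = 0.0138). Vldlr, the receptor for very-low-density lipoprotein, was at -0.16 ± 0.23 in LGI and 0.14 ± 0.56 in HGI, a difference of 0.30 ± 0.19 (exact p = 0.18). Without HGI 9 and HGI 10, both low for Vldlr, its difference was 0.44 ± 0.18 (exact p = 0.0336). Without them that of Srebf1 was -0.34 ± 0.15 (exact p = 0.0721) and that of Acat1 -0.08 ± 0.05 (exact p = 0.0482). For Vldlr, HGI 3 at 1.40 lay far above the next HGI mouse, HGI 4 at 0.355. A second Vldlr probe differed by 0.12 ± 0.09 over all arrays. All 6 further control genes had differences below zero, from -0.36 for Srebf1 to -0.01 for Mbtps1, where 52.6% of all genes were above zero. Apart from Srebf1 none of them reached the unadjusted mark. Scap, the SREBP escort, differed by -0.11 ± 0.07. The SREBP proteases Mbtps1 and Mbtps2 differed by -0.01 ± 0.08 and -0.02 ± 0.08, each less than 1 SE from zero.

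The diet difference of the synthesis genes had opposite signs in the scan groups. In the first 8 arrays 16 of 18 synthesis genes were higher in HGI, with a median difference of 0.16. In the later 9 arrays 15 of 18 were lower, with a median of -0.14. Both held for 13 of 18, where 18.6% of all genes were higher in the first arrays and lower in the later. These genes vary together, so their signs are not separate observations.

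A test of the interaction, that is of the change in the diet difference between scan groups, called no gene (0% at an adjusted p under 0.05 in limma, with a smallest adjusted p of 0.9999). Unadjusted p under 0.05, reached by 1.03% of all genes, was found in 2 members. Msmo1 differed by 0.22 ± 0.12 among the first arrays and by -0.37 ± 0.14 among the later ones, and Sc5d by 0.16 ± 0.14 and -0.32 ± 0.15. Insig1 had the largest change, from 0.34 ± 0.18 to -0.31 ± 0.28, without reaching that mark.

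Several members had the same sign in both scan groups. Srebf2 differed by -0.12 among the first and -0.15 among the later arrays, Abca1 by -0.16 and -0.12, and Soat1 by 0.15 and 0.27. Tm7sf2 was higher in HGI in both, by 0.41 ± 0.09 and 0.18 ± 0.10, as was Fdps, by 0.28 ± 0.12 and 0.14 ± 0.13. Abcg1 differed by 0.03 ± 0.17 among the first arrays and 0.40 ± 0.12 in the later ones, a change that was not past the unadjusted mark. The scan group alone, with diet in the model, changed no gene at an adjusted p under 0.05 (0%), and 0 members reached an unadjusted p under 0.05, which 3.81% of all genes did.

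**Figure D3:**
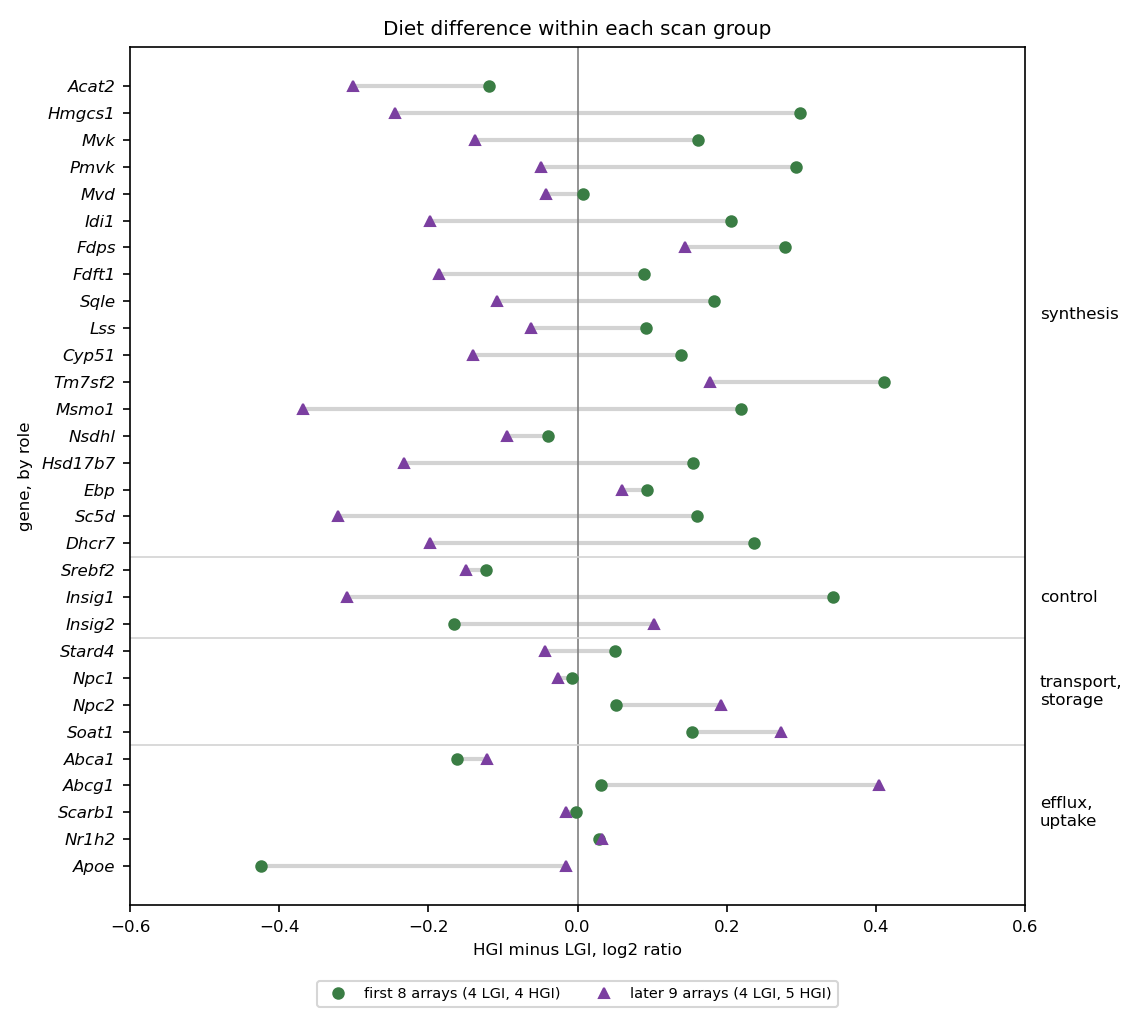
Difference between the diets (horizontal axis, HGI minus LGI, log2 ratio) within the first 8 arrays scanned (circles) and the later 9 (triangles), joined by a line for each of 30 genes in rows by role. Of the 18 synthesis genes 13 lie right of zero among the first arrays and left of it in the later ones.

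Single mice stood high or low across many of the synthesis genes. The mean of the 18 synthesis genes was -0.08 ± 0.16 (SD, n = 8) in LGI and -0.07 ± 0.20 (SD, n = 9) in HGI. HGI 4 had the highest mean, 0.21, with the highest value in 8 of the 18 genes. HGI 6 had the lowest, -0.43, with the lowest value in 9 genes, and LGI 2 followed at -0.38, among the 3 lowest mice in 13 genes. HGI 4 and HGI 6 were both in the later scan group and LGI 2 in the first. LGI means ranged up to 0.08 in LGI 4.

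In HGI 6 the low synthesis genes came with a high Insig2 value, 0.69, a high Abcg1 value, 0.41, and an Apoe value of 0.39, each the highest of the HGI mice. LGI 2 shared the high Insig2 value, 0.79, but not the others, with Abcg1 at -0.44 and Apoe at 0.09. HGI 4 had the reverse for the INSIG pair, with Insig1 at 1.06 and Insig2 at 0.06. The macrophage marker mean was the highest of all mice in HGI 4, at 0.46, and the lowest in LGI 2, at -0.27, and stood at 0.22 in HGI 6. LGI 2 also had the highest mesothelial mean of all mice, 0.45, against -0.11 in HGI 6 and -0.19 in HGI 4. The adipocyte mean was -0.22 in LGI 2, -0.06 in HGI 6 and -0.11 in HGI 4. The part of these cell types in the synthesis values of these mice was not tested.

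The mean of the synthesis genes minus that of the efflux and uptake genes set both arms side by side in each mouse. It was -0.12 ± 0.19 in LGI (SD, n = 8) and -0.09 ± 0.24 in HGI (SD, n = 9). LGI mice ran from -0.40 in LGI 6 to 0.09 in LGI 5, and HGI mice from -0.65 in HGI 6 to 0.15 in HGI 4. The difference between diets, 0.03, was far inside the spread of either group. Among the first 8 arrays that difference was 0.27, and among the later 9 it was -0.19.

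**Figure D4:**
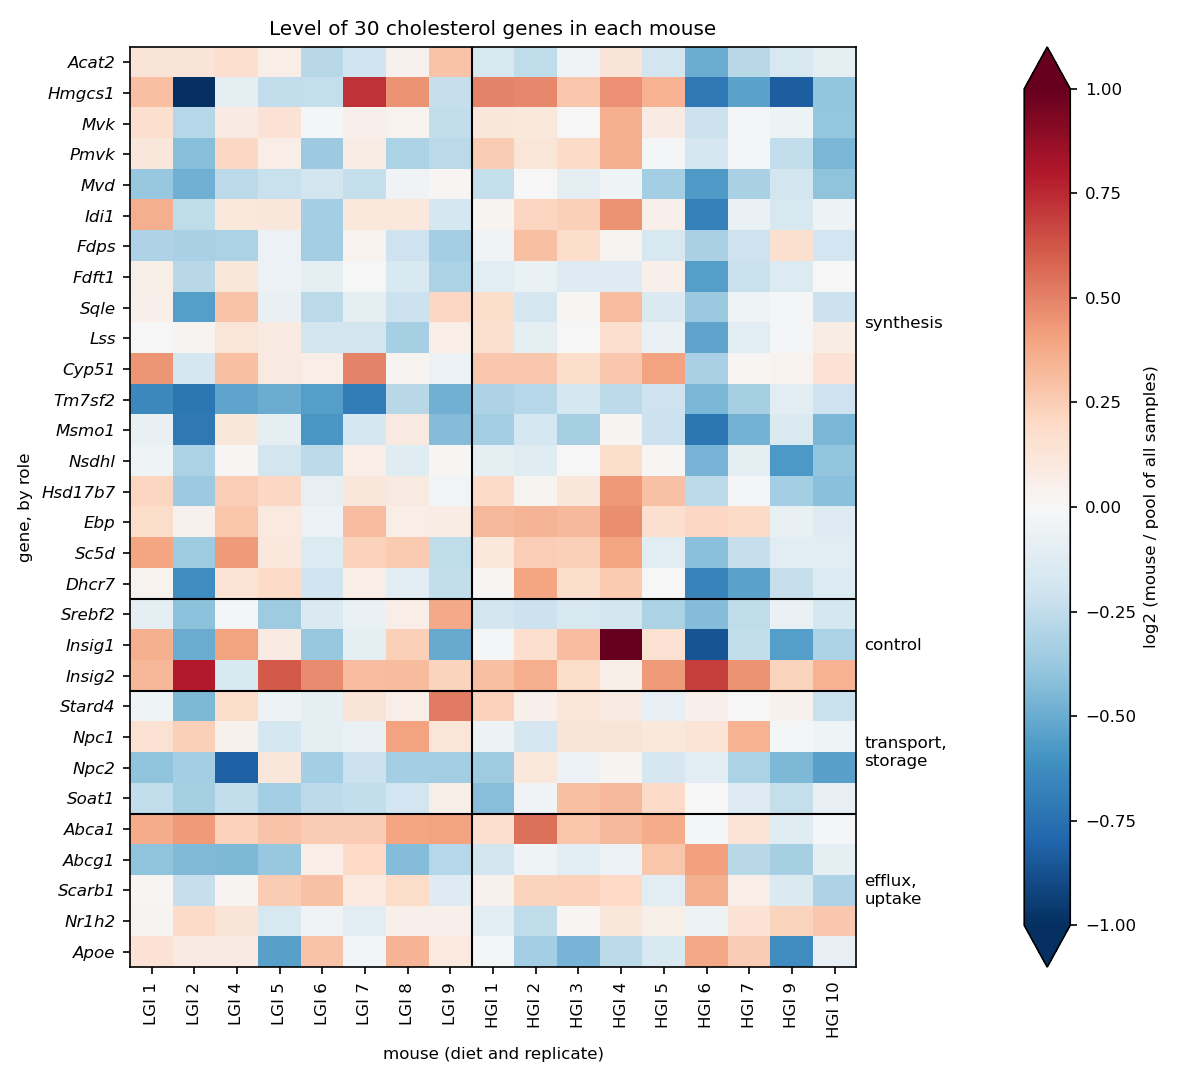
Level of 30 genes (rows, by role) in each of 17 mice (columns, by diet and replicate), as colour for the log2 ratio of mouse to pool, where red is above the pool, blue below, and the scale ends at -1 and 1. HGI 6 and LGI 2 are blue and HGI 4 red across most of the synthesis genes, with Insig2 of the opposite colour in HGI 6 and LGI 2.

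The members' spread between mice of a diet was wide. The pooled SD within diets had a median of 0.22 over the synthesis genes and 0.21 over all members, against 0.17 over all genes tested. The widest were Hmgcs1, at 0.57 (percentile 98.8 of all genes), Insig1, at 0.48, and Dhcr7, at 0.31. The narrowest were Tm7sf2, at 0.12 (percentile 14.6), Nr1h2, at 0.15, and Fdft1, at 0.16. Tm7sf2 thus had both the smallest p for diet and the smallest spread of the members.

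Across mice, many synthesis genes correlated with Hmgcs1. These correlations used the 15 arrays without HGI 9 and HGI 10 and permutation tests with 100000 resamples, adjusted over the 57 pairs computed with Hmgcs1 or Abca1 as the anchor. All values share the Cy3 pool and the array they were read from. Of 29 pairs with Hmgcs1, 9 had an adjusted p under 0.05 by Pearson's r, all of them positive: 8 synthesis genes and Insig1. The closest were Cyp51, with r = 0.81 (permutation p = 0.00025, adjusted 0.0137) and rho = 0.74 (permutation p = 0.00214), and Dhcr7, with r = 0.79 (permutation p = 0.00048, adjusted 0.0137) and rho = 0.60 (permutation p = 0.0191). Sc5d had an r of 0.75, Hsd17b7 0.75, Idi1 0.71, Mvk 0.71, Msmo1 0.70, Nsdhl 0.70 and Insig1 0.66. By Spearman's rho no pair passed the adjustment, and the smallest adjusted p was 0.122.

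The size of these relations rested in part on LGI 2 and HGI 6, the mice farthest from the median of Hmgcs1. Without them 4 of the 9 pairs kept an unadjusted permutation p under 0.05: Cyp51 (r = 0.68), Dhcr7 (r = 0.59), Sc5d (r = 0.58) and Idi1 (r = 0.58). Within the scan groups all 9 had a positive r, for example 0.91 (n = 7) and 0.70 (n = 8) for Cyp51 and 0.94 and 0.77 for Dhcr7. Of the 17 other synthesis genes 13 had an r above 0.5 with Hmgcs1, a level reached by 8.14% of all genes, and their median r was 0.61 against 0.0038 over all genes. Without LGI 2 and HGI 6, 6 of the 17 were above 0.5, against 6.83% of all genes, and their median r was 0.43 against 0.0055.

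A few members did not follow. Acat2 had an r of 0.03 with Hmgcs1, Lss 0.16 and Tm7sf2 0.40. Insig2 ran the other way, with r = -0.59 (permutation p = 0.0199, adjusted 0.0873) and rho = -0.60, and r = -0.20 without LGI 2 and HGI 6. With Abca1 as the anchor 0 of 28 pairs passed the adjustment, and 1, Mvd with r = 0.54, had an unadjusted permutation p under 0.05. Its r was -0.34 with Abcg1, -0.38 with Scarb1 and -0.37 with Apoe.

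**Figure D5:**
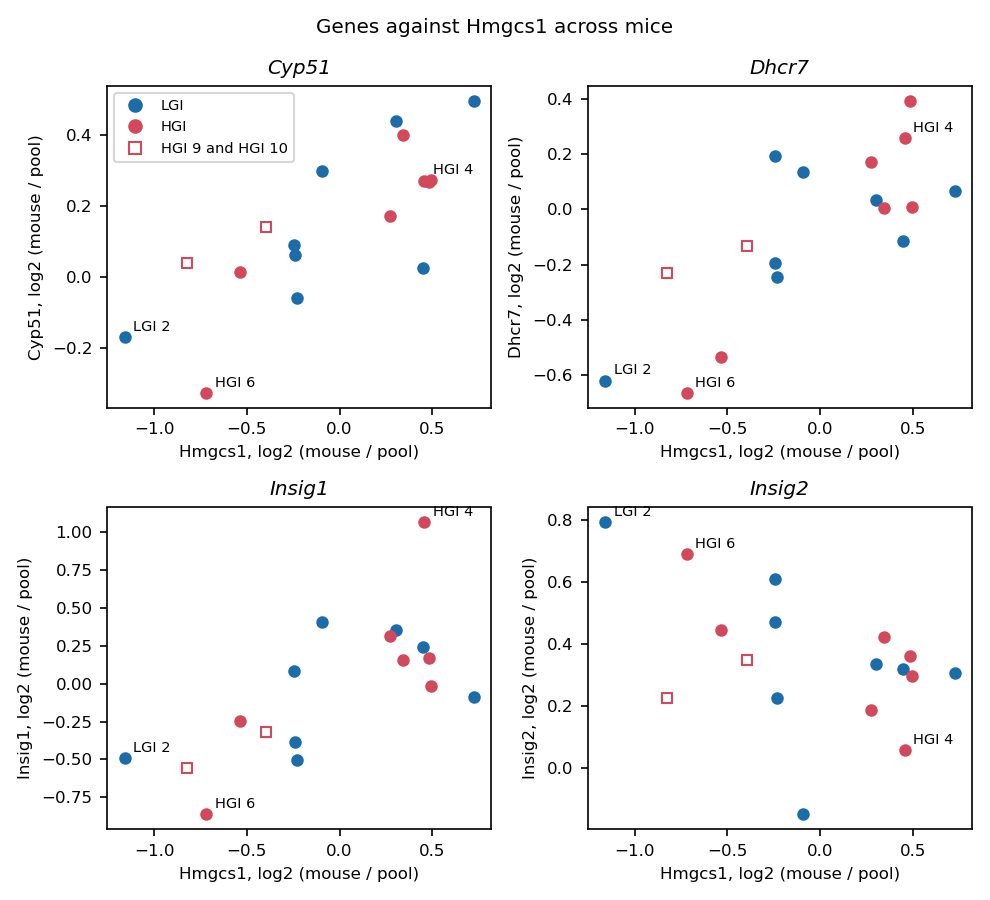
Cyp51, Dhcr7, Insig1 and Insig2 (vertical axes) against Hmgcs1 (horizontal axes) in each of 17 mice, all as log2 ratio of mouse to pool. Blue is LGI and red HGI, and open squares are HGI 9 and HGI 10, which the correlations leave out. The first 3 genes have high values where Hmgcs1 is high (r = 0.81, 0.79 and 0.66 over 15 mice) and Insig2 has low ones (r = -0.59), with LGI 2 and HGI 6 at the left edge of the 15.

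Several probes measured the same gene for 13 members, and in 8 of these (Cyp51, Dhcr7, Hmgcs1, Idi1, Lss, Mvk, Sc5d and Srebf2) the probes disagreed in the sign of the diet difference. In 7 of the 8 the probe used differed by less than its SE. The exception was Srebf2, at -0.14 ± 0.09 with the probe used and at -0.05, -0.04 and 0.01 with its other probes. Tm7sf2, Fdps, Acat2, Soat1, Abca1 and Abcg1 each rested on 1 tested probe. For Hmgcs1 the dimmer probe correlated at 0.79 with the one used, for Sc5d at 0.87 and for Dhcr7 at 0.05. For Cyp51, the closest correlate of Hmgcs1, a second probe of nearly equal brightness correlated at 0.26 with the one used, and a dimmer one at 0.83. The value was -0.19 for Idi1, and -0.36 and -0.18 for Lss. It was 0.49 for Mvk, 0.53 for Insig1, 0.70 for Hsd17b7, 0.85 for Pmvk, and 0.72, 0.71 and 0.49 for Nsdhl. Insig2 had a second probe with a difference of -0.29 ± 0.12, against -0.03 ± 0.10 for the brighter one, the largest gap between probes of a member.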

How the data were processed

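The members and gene lists were chosen with earlier results of these data known. Per the file headers, the deposited scanner files hold spot and background intensities from Agilent Feature Extraction 9.1.3.1 (9.5.1.1 in the submitters' processing notes). The authors also deposited log2 values, which served as an alternative only, since no source used here states their normalization or centring.

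The intensities went into limma 3.58.1 (R 4.3.3, with the data.table package in version 1.17.8): normexp background correction with an offset of 50, then loess of the log2 ratios within each array, with control and flagged spots at weight 0. Of 43790 spots 2256 were controls, 4 to 43 gene spots per array were flagged and left out, and no member lost a value. Averaging spots gave 41174 probes, of which 25515 had Cy5 above background on 8 or more arrays and were tested, and 18134 genes by the brightest probe. Msmo1 is Sc4mol in the files. Diets were compared with lmFit and eBayes, with Benjamini-Hochberg adjustment over all genes and a threshold of 0.05, in code tested on simulated data; exact permutation tests were added after the data were seen. The labels do not describe each animal beyond a replicate number, so every p reflects the spread among these samples, and precision is limited by how many arrays there are.

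Values by group are given for members with unadjusted p under 0.05, the 3 widest and the 3 narrowest in SD, and 10 well-known genes. Of the further pathway genes, those with unadjusted p under 0.05 and the 3 with the largest difference were to be named, and 1 of the latter is not reported here. Correlations, promoters and plots used Python 3.11.15 with NumPy 2.4.6, pandas 2.3.3, SciPy 1.17.1 and matplotlib 3.10.9. Alternatives covered background, normalization, signal, probe choice, filters, scan group, replicate block and leaving out arrays. The labels do not say whether equal replicate numbers link mice, and the main comparison treated the mice as unpaired. Deviations of same-numbered arrays correlated at -0.38 to 0.26 over 7 pairs, and 2 LGI arrays were best matched by the HGI array of their own number. Weak correlations cannot exclude a link.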

Additional observations from a re-analysis of the deposited data

Results flagged for a closer look

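In 60 groups of values (30 genes in each diet), 4 held a mouse whose gap to its nearest neighbour was large for the range of the group (Dixon's ratio above its 95% critical value), where chance gives about 1 in 20. Fdft1, squalene synthase, was at -0.55 in HGI 6, with the nearest HGI mouse at -0.22, a gap of 0.548 of the range. Lss, lanosterol synthase, was at -0.53 in the same mouse, with the nearest at -0.10 and a ratio of 0.607. Soat1, the cholesterol esterifying enzyme, was at 0.06 in LGI 9, above the other LGI mice, the nearest of which was at -0.19 (ratio 0.623). Apoe was at -0.55 in LGI 5, with the nearest LGI mouse at -0.03 (ratio 0.59).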

How the results depend on the processing

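No member passed an adjusted p of 0.05 under any of the 18 alternatives (17 for Mvd, which the filter to genes above background on all 17 arrays removed) or with any of 17 arrays left out. The difference kept its sign throughout in 10 of 30 members. A change of sign was counted as a reversal where the main or the alternative difference exceeded its SE, which left 18 members with none. Reversals in the authors' deposited table were Idi1 at -0.14, Sqle at -0.10, Lss at -0.086 and Npc1 at 0.18. In the first 8 arrays alone they were Msmo1 at 0.22, Hsd17b7 at 0.15 and Sc5d at 0.16, and in the later 9 Mvk at -0.14, Pmvk at -0.049, Idi1 at -0.20, Dhcr7 at -0.20 and Insig1 at -0.31. Without HGI 9, HGI 10 and LGI 9, Stard4 was at 0.10. The causes were not tested.

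The count of genes called, 0 of 18134, was 1 with Cy5 alone and 1 with array weights, and 0 to 3 when single arrays were left out (3 without LGI 7); none was a member. The 4 members with unadjusted p under 0.05 became 2 with Cy5 alone, 2 with the replicate block over 14 arrays, 2 in those arrays without it, 7 without HGI 9 and HGI 10, and 2 to 5 when single arrays were left out (2 without LGI 9 and 2 without HGI 3). Synthesis minus efflux differed by 0.27 in the first 8 arrays, beside 0.03 over all. With processed signals 3 genes differed between scan groups. With all 17 arrays 1 pair with Abca1 passed the adjustment.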
